A study of Mus musculus with 60 samples.

Results

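Hnf4a, Foxa1, Foxa2, Foxa3, Onecut1, Onecut2, Nr5a2 and Prox1 are the transcription factors on which the hepatocyte gene programme is commonly said to rest. The 8 genes were taken by name, and all 8 were found among the 19355 gene symbols of the cell data and the 17473 of the liver data. All 8 passed the filter on low values, which asked for at least 1 FPKM (a level of fragments relative to gene length and library size) in at least 3 libraries.

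Hnf4a encodes a nuclear receptor that binds the regulatory regions of a large share of the genes for apolipoproteins, clotting factors and metabolic enzymes. The FOXA proteins (Foxa1, Foxa2 and Foxa3) are forkhead factors that open chromatin at liver enhancers, and the ONECUT proteins (Onecut1, also called HNF6, and Onecut2) act in liver and bile duct development. Nr5a2 (LRH-1) is a nuclear receptor of bile acid and cholesterol metabolism, and Prox1 is a homeobox factor of early hepatoblasts, hepatocytes and lymphatic endothelium. These factors bind one another's genes and their levels shift between fetal liver, bile duct cells and mature hepatocytes.

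The labels give all samples as C57BL/6 and WT, and the methods name C57BL/6J mice of 8 to 10 weeks. The study's single-cell clones are described as coming from mice in which Albumin-Cre, active in hepatocytes, turns on the reporter R26RtdTomato. Whether the clone-1 libraries carry these alleles was not given in the labels. The cell data held 11 groups of 3 libraries. Freshly isolated Hepatocytes were the reference. Hepatocytes grown in medium with EGF, HGF, dexamethasone and the cytokine IL6 gave IL6-iHPCs (induced hepatic progenitor cells) at day 3 (D3) and day 14 (D14) of passage 0. The passaged IL6-iHPCs were mouse-1 at passage 10 (P10), mouse-2 at P10, clone-1 at P20 and mouse-1 at P35. Each of these 4 lines was also kept for 7 days in maturation medium with dexamethasone and oncostatin M, which gave IL6-iMHs (induced mature hepatocytes). The liver data held 6 groups of 3 livers, namely Normal liver and livers 6 h, 24 h, 3 days, 7 days and 14 days after removal of 2/3 of the liver (PHX-6h, PHX-24h, PHX-D3, PHX-D7 and PHX-D14). The 3 libraries of a cell group were described as technical repeats, mouse-1 enters at 2 passages and clone-1 is 1 clone. The p-values of the cell data below therefore measure the spread between libraries and not between cultures or mice. Each liver group was taken as 3 separate livers, so the p-values of the liver data measure the spread between livers.

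Estimated depth, rounded, was 49300000 to 88800000 fragments per cell library and 52000000 to 79200000 per liver library. Summed levels of 8 hepatocyte markers were 80251 to 84527 FPKM in Hepatocytes, 7939 to 8832 at D3, 4275 to 18375 over the passaged IL6-iHPCs and 69535 to 87182 over the IL6-iMHs. Summed levels of 7 biliary and progenitor markers were 4.09 to 4.40 FPKM in Hepatocytes, 750 to 874 at D3, 4218 to 4649 at D14, 2983 to 11091 over the passaged IL6-iHPCs and 278 to 1566 over the IL6-iMHs. In Hepatocytes the markers of Kupffer cells summed to at most 12.3 FPKM and those of red blood cells to 107 to 122 FPKM, of which Alas2, an enzyme of haem synthesis, made up 90.4 to 98.1, and the latter were at most 1.03 FPKM in every cultured library. The 4 Y-linked genes summed to 5.46 to 7.21 FPKM in Hepatocytes, 70.5 to 81.4 at D3, 53.4 to 62.3 at D14 and 33.9 to 38.7 in the libraries labelled IL6-iHPCs-clone-1, and had at most 2 reads in all other cell libraries, including those labelled IL6-iMHs-clone-1. The 2 clone-1 groups therefore differ in a way that their common name does not give, and the comparisons over the 4 lines were also computed without them. The mouse-1 and mouse-2 libraries also differed from Hepatocytes in these genes, before and after maturation. D3 and D14 differed from Hepatocytes as well, with the higher sums given above. Comparisons of these lines, of D3 and of D14 with Hepatocytes therefore cross a difference in Y-linked genes too. Leaving out clone-1 does not remove it. The part of this difference in the changes was not tested.

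One property of the cell data bears on all changes against Hepatocytes. The median gene was 1.14 higher on the log2 scale at D3 than in Hepatocytes, 1.00 higher at D14, 0.93 higher for passaged IL6-iHPCs and 0.46 higher for IL6-iMHs, and it was 0.40 lower in IL6-iMHs than in IL6-iHPCs (a change of -0.40). FPKM values are relative to all reads of a library, and all changes were therefore also computed after quantile normalization, after median of ratios scaling and from recovered reads with limma voom, and are given below with the range over the 4 scalings. A change was called where limma on log2(FPKM + 1) gave a Benjamini-Hochberg adjusted p under 0.05 and at least a 2-fold difference. Fold changes on that scale understate the change of genes near or below 1 FPKM.

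Foxa2 and Foxa3 exchanged places as the leading FOXA gene between Hepatocytes and the early cultures (described below), so their promoters are shown with the motifs that were found. The 250 bases before the RefSeq start of Foxa2 (chr2:148046970-148047219, GRCm38.p6, minus strand, 50.8% GC) hold the ONECUT core ATTGAT, in capitals, 213 to 208 bases before the start. Those of Foxa3 (chr7:19023540-19023789, minus strand, 68.8% GC) hold the TATA motif TATAAA, in capitals, 36 to 31 bases before the start. Both windows lie outside the exons of the annotation.
Foxa2: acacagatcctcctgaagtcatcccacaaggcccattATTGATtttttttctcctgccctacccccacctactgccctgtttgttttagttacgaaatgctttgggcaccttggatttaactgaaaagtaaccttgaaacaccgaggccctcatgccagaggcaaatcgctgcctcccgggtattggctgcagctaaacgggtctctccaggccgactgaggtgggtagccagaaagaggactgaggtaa
Foxa3: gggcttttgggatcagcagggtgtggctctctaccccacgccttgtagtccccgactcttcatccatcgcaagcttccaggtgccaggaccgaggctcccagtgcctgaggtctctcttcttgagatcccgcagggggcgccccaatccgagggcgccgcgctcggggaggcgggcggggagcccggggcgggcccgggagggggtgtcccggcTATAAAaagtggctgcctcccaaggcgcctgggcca

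The 6 motifs searched (TGTTTAC for FOXA, CAAAGTCCA for HNF4, ATTGAT for ONECUT, CAAGGTCA for NR5A, TTCCNGGAA for STAT and TATAAA for TATA) were looked for on both strands in 12 such windows of 7 members. ATTGAT was also found 59 to 54 bases before the first start of Hnf4a, on the reverse strand. TGTTTAC was found once, 141 to 135 bases before the start of Foxa1 on the reverse strand. TATAAA was found on the reverse strand before the first starts of Nr5a2 (181 to 176 bases) and Prox1 (34 to 29 bases) and before the third start of Foxa2 (208 to 203 bases). Among 32841 mouse promoters of the same length, ATTGAT was in 6.72%, TATAAA in 12.37%, TGTTTAC in 3.17%, CAAGGTCA in 1.33%, TTCCNGGAA in 0.91% and CAAAGTCCA in 0.38%. The matches are letters in a window and were not tested as binding sites.

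The 8 genes lie on 7 chromosomes in GRCm38, with Nr5a2 (chr1:136842571-136960448) and Prox1 (chr1:190118035-190170714) on chromosome 1 and Foxa2 (chr2:148042877-148046969) and Hnf4a (chr2:163506808-163572910) on chromosome 2. The remaining members are Foxa3 (chr7:19013284-19023538), Onecut1 (chr9:74861921-74891781), Foxa1 (chr12:57540628-57546916) and Onecut2 (chr18:64340020-64400987). Antisense genes overlap Hnf4a and Prox1, and whether the libraries kept strand was not given, so reads of these pairs cannot be told apart. Gene-level FPKM also does not separate transcripts from the different start sites of Hnf4a.

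Hnf4a was the most abundant member in each of the 17 groups. The lowest was Foxa1 in 9 groups, Onecut2 in 4, and Nr5a2 and Onecut1 in 2 each. The ratio of the highest to the lowest group mean in the cell data was 1.97 for Hnf4a, 6.55 for Foxa3, 8.81 for Foxa2, 13.6 for Prox1, 18.7 for Onecut1, 26.3 for Nr5a2, 64.2 for Onecut2 and 131 for Foxa1. In the cell data Hnf4a was therefore both the highest member and the one that varied least, while Foxa1 was low and varied most. In the livers the ratio was 1.81 for Nr5a2 and 1.82 for Hnf4a, the lowest, and 10.2 for Onecut1, the highest. The median coefficient of variation between repeats was 3.12% for Hnf4a and at most 14.5% (Foxa1) for the others.

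**Figure D1:**
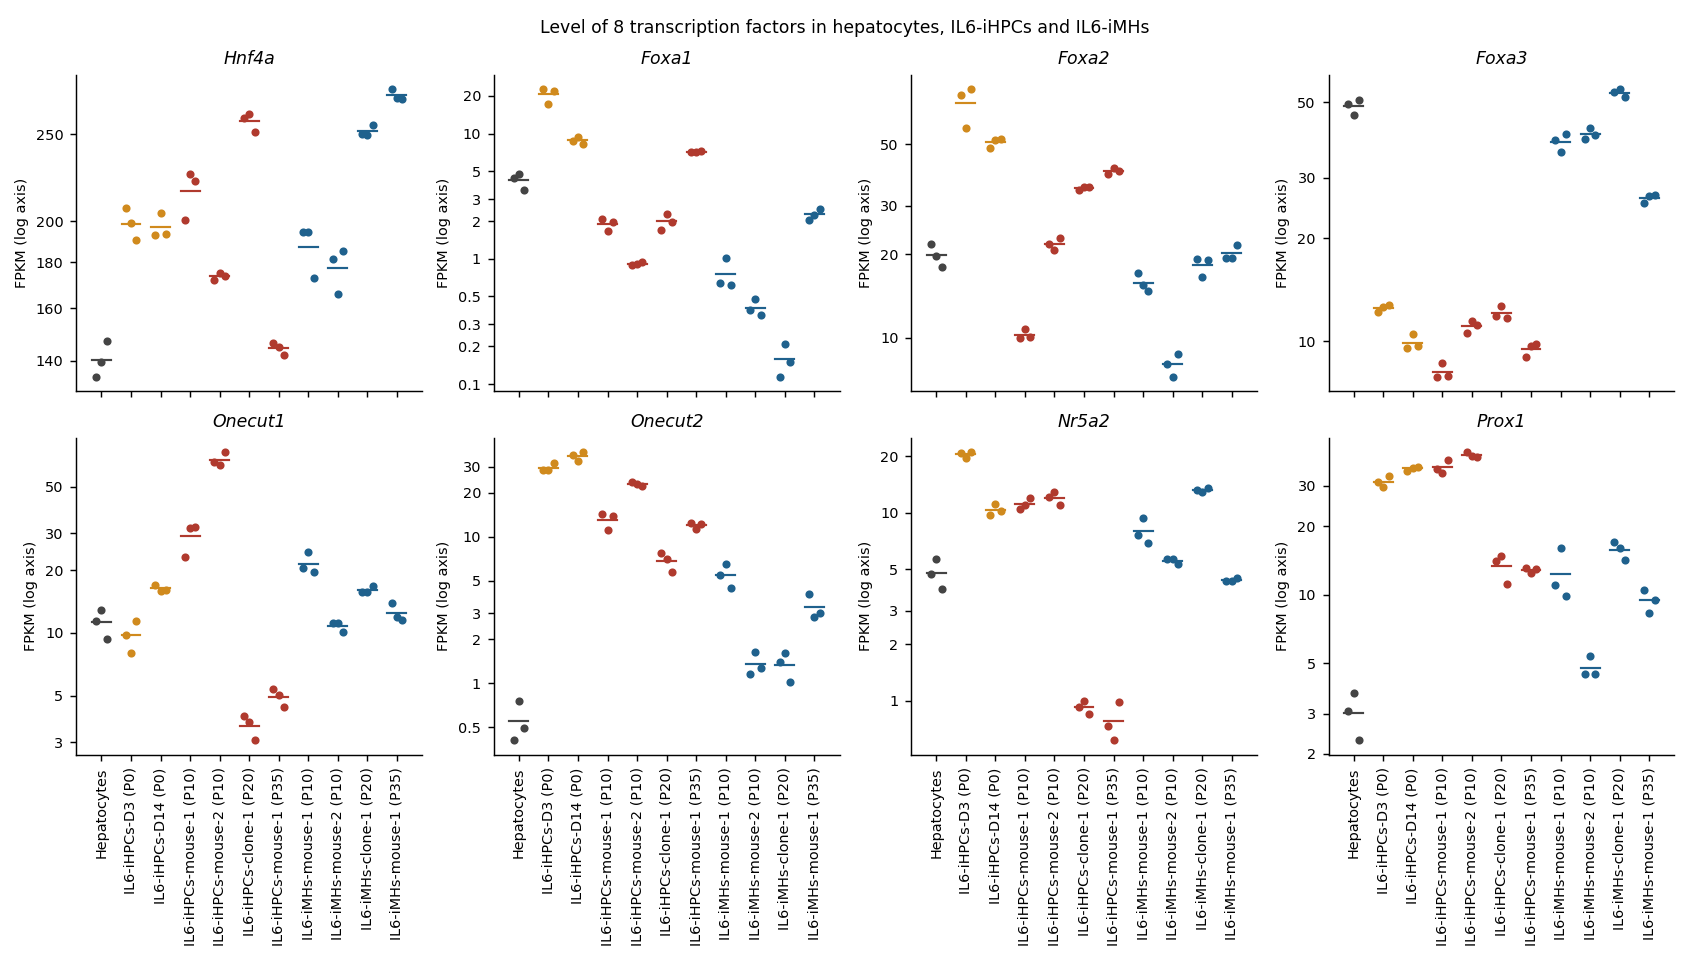
FPKM of each of the 8 factors in the 11 groups of the cell data (vertical axis, log scale; points are the 3 libraries of a group and bars their mean). Hnf4a stays between 134 and 281 FPKM in all libraries, whereas Onecut2 goes from 0.408 to 0.757 FPKM in Hepatocytes to 32.9 to 37.6 FPKM at D14.

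Onecut2 and Prox1 rose and Foxa3 fell when Hepatocytes were put into IL6 medium, while Hnf4a as deposited stayed within a 2-fold range. Onecut2, scarcely expressed in adult hepatocytes, was 0.408, 0.757 and 0.494 FPKM in the Hepatocyte libraries, 28.7, 28.6 and 31.6 at D3 and 36.0, 32.9 and 37.6 at D14. Prox1 was 3.08, 3.69 and 2.30 FPKM in Hepatocytes, 31.2, 29.5 and 33.03 at D3 and 34.9, 36.1 and 36.4 at D14. Foxa3, the FOXA factor most typical of adult liver, was 49.5, 45.9 and 50.6 FPKM in Hepatocytes, 12.2, 12.6 and 12.8 at D3 and 9.55, 10.5 and 9.66 at D14. For these 3 genes no culture library overlapped the range of the Hepatocyte libraries.

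On the log2 scale Onecut2 rose by 4.31 ± 0.12 (SE) at D3 (limma adjusted p = 6.3e-24) and 4.56 ± 0.12 at D14 (adjusted p = 1.7e-24). Prox1 rose by 3.02 ± 0.12 (adjusted p = 8.1e-20) and 3.21 ± 0.12 (adjusted p = 2.0e-20). Foxa3 fell by 1.87 ± 0.06 (adjusted p = 2.9e-23) and 2.19 ± 0.06 (adjusted p = 7.2e-25). These calls held in all 4 scalings at both times, with ranges of 3.13 to 5.76 for Onecut2, 1.63 to 3.38 for Prox1 and -3.43 to -1.87 for Foxa3 at D3. The comparisons with Hepatocytes share the same 3 reference libraries.

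The other FOXA genes and Nr5a2 were higher at D3, with a smaller margin. Foxa1 was 4.45, 4.77 and 3.54 FPKM in Hepatocytes and 22.7, 17.1 and 22.1 at D3, a rise of 2.04 ± 0.10 (adjusted p = 2.8e-18). Foxa2, which acts from the earliest steps of endoderm formation, was 21.9, 19.7 and 17.95 FPKM in Hepatocytes and 75.1, 57.2 and 79.3 at D3, a rise of 1.77 ± 0.09 (adjusted p = 1.1e-17). Nr5a2 was 4.69, 5.70 and 3.91 FPKM and then 20.7, 19.6 and 20.9, a rise of 1.90 ± 0.09 (adjusted p = 5.4e-18). The ranges of these 3 genes at D3 did not overlap those of Hepatocytes, but the calls depended on scaling. Over the 4 scalings the change at D3 was 0.61 to 2.26 for Foxa1 and 0.46 to 2.10 for Nr5a2, each called in 2 of them, and 0.20 to 1.82 for Foxa2, called in 3.

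At D14 Foxa2 (48.6, 51.7 and 52.4 FPKM) was still called, at 1.32 ± 0.09 (adjusted p = 1.6e-14), but its change turned to -0.07 under median of ratios scaling. Foxa1 (8.74, 9.47 and 8.29 FPKM) and Nr5a2 (9.75, 11.1 and 10.2 FPKM) were at 0.91 ± 0.10 and 0.99 ± 0.09, short of the 2-fold limit. Onecut1 was 11.5, 12.9 and 9.38 FPKM in Hepatocytes, 9.73, 8.04 and 11.5 at D3 and 17.05, 15.8 and 16.1 at D14. Its change was -0.19 ± 0.12 at D3 (adjusted p = 0.13), where the libraries overlapped, and 0.51 ± 0.12 at D14. Over the 4 scalings its change at D3 was -1.68 to -0.19, called lower in 2 of them. Hnf4a was 134, 139 and 147 FPKM in Hepatocytes, 207, 199 and 191 at D3 and 193, 204 and 193 at D14. Its change of 0.50 ± 0.06 at D3 and 0.49 ± 0.06 at D14 was below the median gene, and its sign turned under median of ratios scaling (-1.11 and -0.94). At D3 Hnf4a was called higher in 1 of the 4 scalings and lower in another. At D14 the changes of Foxa1, Onecut1 and Nr5a2 were negative in 2 of the 4 scalings.

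In all, 5 members were called higher and 1 lower at D3, beside 53.9% of all 12328 tested genes called higher and 12.1% lower. At D14, 3 were higher and 1 lower, beside 50% and 12.9%. The number of higher members is near the background in both cases. Quantile normalization gave 4 higher and 2 lower at D3 and 3 and 1 at D14, and median of ratios scaling 2 and 3 at D3 and 2 and 1 at D14. Over all genes the calls at D3 were 6641 higher and 1494 lower as deposited, 3179 and 2749 after quantile normalization, and 3207 and 3493 after median of ratios scaling.

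**Figure D2:**
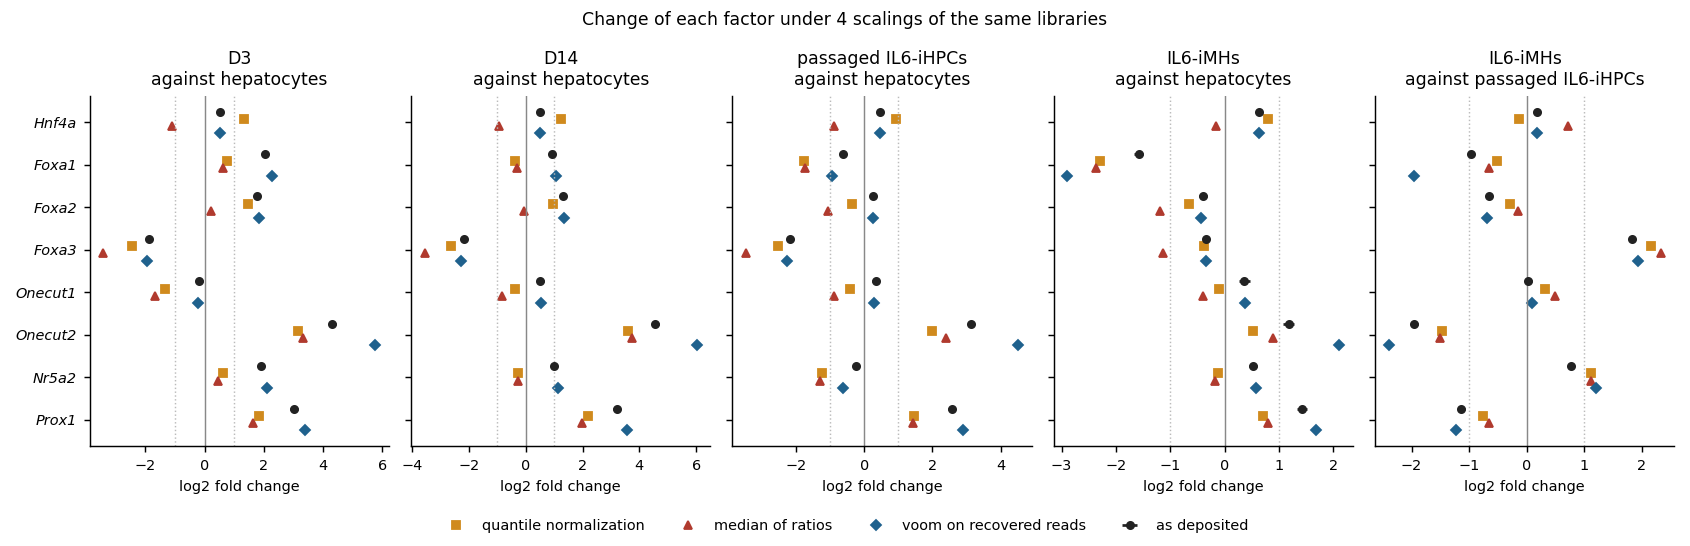
Log2 change of each factor (horizontal axis) in the comparisons of the cell data, under the 4 scalings named in the key. Foxa3, Onecut2 and Prox1 are called at D3 under all 4. Only Hnf4a, between -1.11 and 1.31, changes sign there.

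The passaged IL6-iHPCs kept high Onecut2 and Prox1 and low Foxa3. Over the 12 libraries of the 4 lines, Foxa3 was 7.88 to 12.7 FPKM (median 10.2), Onecut2 5.76 to 23.5 (median 12.3) and Prox1 11.1 to 42.1 (median 24.5), each outside the range of Hepatocytes. Against Hepatocytes the changes were -2.16 ± 0.04 (adjusted p = 1.9e-27), 3.13 ± 0.10 (adjusted p = 4.1e-23) and 2.56 ± 0.10 (adjusted p = 1.2e-20), called in all 4 scalings. These 2 higher and 1 lower members stand beside 48.1% and 11.3% of all genes, and the same 3 calls were made without the clone-1 lines. Quantile normalization added 2 lower members and median of ratios scaling 3 (2 higher and 3 lower, and 2 higher and 4 lower).

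The lines differed from one another in most factors, and 3 of them were higher in both lines at P10. Onecut1 was 65.7, 63.6 and 73.0 FPKM in mouse-2 (P10) and 23.1, 31.7 and 32.2 in mouse-1 (P10), but 4.01, 3.75 and 3.07 in clone-1 (P20) and 5.43, 5.04 and 4.43 in mouse-1 (P35). Nr5a2 showed the same split, with 10.5, 10.99 and 12.01 FPKM in mouse-1 (P10), 12.1, 12.9 and 11.04 in mouse-2 (P10), 0.922, 1.0 and 0.847 in clone-1 (P20) and 0.736, 0.616 and 0.981 in mouse-1 (P35). Prox1 was 34.1 to 42.1 FPKM in the P10 lines and 11.1 to 14.8 in clone-1 (P20) and mouse-1 (P35). Both lines at P10 were thus above both lines of higher passage in all 3 genes, with no overlap between libraries. The libraries of a line are technical repeats, and the share of all genes with such a split was not counted. Passage and line cannot be told apart except within mouse-1.

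Foxa1 and Foxa2 also differed between the lines. Foxa1 was 2.07, 1.68 and 1.96 FPKM in mouse-1 (P10), 0.892, 0.911 and 0.947 in mouse-2 (P10), 1.71, 2.28 and 1.98 in clone-1 (P20) and 7.16, 7.13 and 7.21 in mouse-1 (P35). Foxa2 was 10.01, 10.8 and 10.03 FPKM in mouse-1 (P10), 21.9, 20.8 and 22.9 in mouse-2 (P10), 34.2, 35.1 and 34.9 in clone-1 (P20) and 39.0, 40.9 and 40.0 in mouse-1 (P35). Foxa2 was thus lower in both lines at P10 than in both lines of higher passage, opposite to Onecut1, Nr5a2 and Prox1, and mouse-1 was lower in both FOXA genes at P10 than at P35. Hnf4a was highest in clone-1 (P20) at 260, 263 and 251 FPKM and lowest in mouse-1 (P35) at 147, 145 and 142.

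Among the 11 ordered group means of the cell data, neighbouring groups overlapped in 7 of 10 steps for Hnf4a, in 5 for Onecut1, Nr5a2 and Prox1, in 4 for Foxa2 and in 3 for Foxa1, Foxa3 and Onecut2. Such steps were counted for the members only, here and in the livers. Onecut2 was highest at D14 and lowest in Hepatocytes. Foxa1, Foxa2 and Nr5a2 were highest at D3, and Prox1 and Onecut1 in IL6-iHPCs-mouse-2 (P10).

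In all 4 lines Foxa3 was higher and Onecut2 lower in IL6-iMHs than in IL6-iHPCs. The 2 clone-1 groups differ in Y-linked genes and were not shown to be the same cells. Their differences here and below may therefore not be changes on maturation. Foxa3 went from 7.88, 8.64 and 7.90 FPKM to 38.7, 35.7 and 40.2 in mouse-1 (P10), from 10.6, 11.5 and 11.1 to 39.0, 41.8 and 40.1 in mouse-2 (P10), from 11.9, 12.7 and 11.7 to 53.6, 54.6 and 51.7 in clone-1 and from 8.96, 9.68 and 9.78 to 25.4, 26.5 and 26.8 in mouse-1 (P35). Over the 4 lines it rose by 1.83 ± 0.03 (adjusted p = 4.8e-30). Beside 45.9 to 50.6 FPKM in Hepatocytes, the IL6-iMHs of mouse-1 and mouse-2 at P10 lay just below, clone-1 just above and mouse-1 (P35) furthest below, at 25.4 to 26.8 FPKM.

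Onecut2 went from 14.3, 11.02 and 13.7 FPKM to 5.51, 6.52 and 4.49 in mouse-1 (P10), from 23.5, 22.8 and 22.2 to 1.15, 1.62 and 1.28 in mouse-2 (P10), from 7.68, 7.01 and 5.76 to 1.39, 1.6 and 1.01 in clone-1 and from 12.4, 11.3 and 12.2 to 4.09, 2.83 and 3.01 in mouse-1 (P35). Over the 4 lines it fell by 1.95 ± 0.06 (adjusted p = 9.9e-23). All IL6-iMH libraries stayed above all Hepatocyte libraries. Prox1 was called lower over the 4 lines, at -1.14 ± 0.06 (adjusted p = 1.2e-16), in 2 of the 4 scalings (range -1.22 to -0.65). Foxa3 and Onecut2 were called in all 4.

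Onecut1 changed in opposite directions in different lines. It fell from 65.7, 63.6 and 73.0 FPKM to 11.1, 11.1 and 10.1 in mouse-2 (P10), a change of -2.53, and rose from 4.01, 3.75 and 3.07 to 15.7, 15.7 and 16.8 in clone-1 (1.89) and from 5.43, 5.04 and 4.43 to 13.9, 11.9 and 11.5 in mouse-1 (P35), a change of 1.17. In mouse-1 (P10) it was at -0.41, with 20.5, 24.3 and 19.5 FPKM after maturation. The line means, 3.61 to 67.4 FPKM before maturation, lay between 10.8 and 21.4 FPKM after it, beside 11.2 FPKM in Hepatocytes. The change over the 4 lines was 0.03 ± 0.06 (adjusted p = 0.64), and -0.59 without the clone-1 lines.

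Nr5a2 behaved likewise, rising by 2.89 in clone-1 (13.3, 12.9 and 13.6 FPKM in the IL6-iMHs) and by 1.61 in mouse-1 at P35 (4.35, 4.34 and 4.51 FPKM), with changes of -0.45 and -0.98 in mouse-1 and mouse-2 at P10. Prox1 fell by 1.51 in mouse-1 (P10) and 2.87 in mouse-2 (P10) and was at 0.23 and -0.41 in clone-1 and mouse-1 (P35). Foxa2 fell by 1.35 in mouse-2 (P10), and was at 0.57, -0.89 and -0.95 in the other lines. Foxa1 was lower in all 4 lines, with no overlap between libraries, at -0.73 in mouse-1 (P10) and -0.45 in mouse-2 (P10). Group means at P10 went from 1.90 to 0.760 FPKM in mouse-1 and from 0.916 to 0.408 in mouse-2. Foxa1 fell by 1.36 in clone-1, to 0.115, 0.210 and 0.150 FPKM (21, 41 and 32 reads), and by 1.32 in mouse-1 (P35). Over the 4 lines it was called in 1 of the 4 scalings (-1.95 to -0.51). Hnf4a was at 0.93 in mouse-1 (P35) and between -0.21 and 0.03 in the other lines. In mouse-1 (P35) it went to 281, 274 and 273 FPKM.

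Over the 4 lines 1 member was called higher and 2 lower, beside 6.68% and 21.4% of all genes, and the calls were the same without the clone-1 lines. Quantile normalization and median of ratios scaling each gave 2 higher and 1 lower. Within lines the members called higher and lower were 1 and 2 for mouse-1 at P10 (9.59% and 15.4% of all genes), 1 and 4 for mouse-2 (11.2% and 28.6%), 3 and 2 for clone-1 (5.86% and 17.7%) and 3 and 2 for mouse-1 at P35 (10.2% and 35.1%). An F test of whether the change on maturation differed between the 4 lines was past an adjusted p of 0.05 for all 8 members, as for 96.3% of all genes, so it does not set the members apart. The spread in that test is that of technical repeats.

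Against Hepatocytes, the IL6-iMHs remained above in Onecut2 and Prox1 and fell below in Foxa1. Onecut2 was higher by 1.18 ± 0.10 (adjusted p = 2.2e-12; 1.01 to 6.52 FPKM, median 2.23) and Prox1 by 1.43 ± 0.10 (adjusted p = 5.1e-14; 4.48 to 17.01 FPKM, median 10.2), each called in 2 of 4 scalings. Foxa1 was lower, at -1.58 ± 0.08 (adjusted p = 9.7e-18; 0.115 to 2.52 FPKM, median 0.547), in all 4. Foxa3 was at -0.34 ± 0.04, Foxa2 at -0.40 ± 0.07, Onecut1 at 0.37 ± 0.09, Nr5a2 at 0.52 ± 0.07 and Hnf4a at 0.64 ± 0.04, all short of 2-fold. The 2 higher and 1 lower members stand beside 24.8% and 7.79% of all genes. Quantile normalization left 0 higher and 1 lower, and median of ratios scaling 0 higher and 3 lower, and no call changed without the clone-1 lines.

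Because both paralogue families are measured per length in the same library, the share of each member does not depend on any factor that scales a whole library. Foxa3 made up 66.9% ± 2.8 (SD, n = 3) of the summed FOXA level in Hepatocytes, 12.3% ± 2.0 at D3 and 14.2% ± 0.47 at D14. Foxa2 made up 27.2% ± 2.1, 67.8% ± 1.9 and 73.1% ± 1.2 in the same groups. The leading FOXA gene was thus Foxa3 in Hepatocytes and Foxa2 in both early cultures, although the family sum was 72.8 FPKM in Hepatocytes, 104 at D3 and 69.7 at D14.

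In the passaged IL6-iHPCs the Foxa3 share was 40.1% ± 0.81 for mouse-1 (P10), 32.8% ± 1.6 for mouse-2, 24.7% ± 0.60 for clone-1 and 16.7% ± 0.46 for mouse-1 (P35). After maturation it was 69.7% ± 2.2, 82.7% ± 1.5, 74.3% ± 2.0 and 53.9% ± 1.2 in the same order. Foxa1 made up 5.85% ± 0.93 in Hepatocytes, 19.9% ± 0.68 at D3 and 0.221% to 4.65% (group means) in IL6-iMHs. The order of Foxa2 and Foxa3 turned back in all 4 lines.

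Onecut1 made up 95.3% ± 1.1 of the summed ONECUT level in Hepatocytes, 24.6% ± 2.4 at D3 and 31.6% ± 1.3 at D14. It made up 29.3% to 74.7% (group means) over the passaged IL6-iHPCs and 79.1% to 92.3% over the IL6-iMHs. In Normal liver its mean share was only 45.2%, and group means after hepatectomy were 29.6% to 64.5%. The high share in isolated Hepatocytes was thus not seen in whole liver. In 54 of 76 comparisons of a share between groups of 3, the 2 groups did not overlap. In the livers only Foxa1 at PHX-D3 and Foxa2 at PHX-D14 were apart from Normal liver, and the rest were cell groups. Shares within a family depend on one another, and other gene families were not counted. Without overlap an exact two-sided permutation test of 3 against 3 reaches its smallest value, p = 0.1 (adjusted p = 0.14), so none can pass 0.05.

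**Figure D3:**
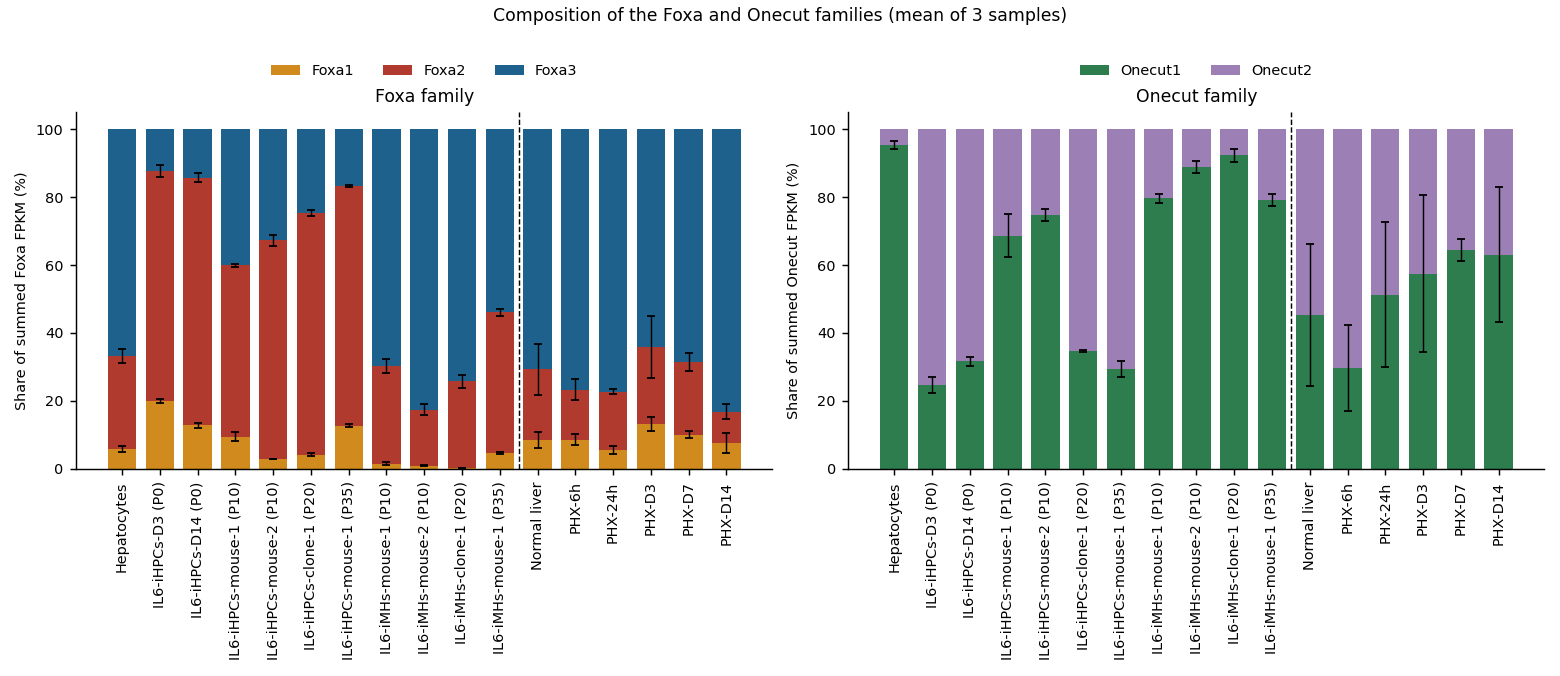
Percent of the summed FOXA level (left panel) and ONECUT level (right panel) taken by each member, as means of 3 libraries per group. Error bars are 1 SD, and a dashed line lies between cell and liver groups. Foxa3 takes 66.9% in Hepatocytes, 12.3% at D3 and 53.9% to 82.7% in the IL6-iMHs.

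The known target genes of the factors covered a wider range of changes than the factors. Lists of targets and of other hepatocyte factors were drawn up from textbook knowledge. Of 19 HNF4A targets, 1 was called higher and 16 lower at D3 (median -5.04, beside 1.14 for all genes), among them Apoa2 (-12.14 ± 0.15) and Apoa1 (-9.68 ± 0.16), the main proteins of high-density lipoprotein, while Apob, the protein of low-density lipoprotein, rose by 3.15 ± 0.27. Hnf4a itself was not called as deposited, but at D3 it was called higher in 1 of the 4 scalings and lower in 1 (-1.11 to 1.31). At D14 the count of targets was 1 higher and 15 lower. The passaged IL6-iHPCs had 2 and 15.

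Of 8 FOXA targets, 2 rose and 6 fell at D3 (median -6.93). Igfbp1, an insulin-regulated binding protein, rose by 3.65 ± 0.07 and Afp, the fetal albumin homologue, by 2.82 ± 0.11, whereas Pck1 (-8.60 ± 0.09) and Tat (-8.26 ± 0.08), enzymes of gluconeogenesis and tyrosine breakdown, fell. The counts were 2 and 6 (D14) and 1 and 6 (passaged IL6-iHPCs). Of 8 ONECUT targets, a list that holds the members Foxa2 and Hnf4a, 2 rose and 5 fell at D3, the latter with Ttr, the thyroxine carrier (-6.80 ± 0.10). For this list they were 2 and 5 (D14) and 1 and 5 (passaged IL6-iHPCs).

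Of 7 NR5A2 targets, 0 were higher and 6 lower by limma at D3, while Nr5a2 was called higher. Cyp8b1, the enzyme that sets the ratio of bile acids, fell by 8.02 ± 0.10 and Nr0b2, the repressor SHP, by 5.0 ± 0.07. At D14 all 7 were lower, and in passaged IL6-iHPCs 6.

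On maturation more targets rose than fell in each of the 4 lists. Against passaged IL6-iHPCs, 11 HNF4A targets were higher and 1 lower, 7 FOXA targets higher and 0 lower, 4 ONECUT targets higher and 0 lower and 3 NR5A2 targets higher and 0 lower. The urea cycle gene Cps1 rose by 8.01 ± 0.08, Apoc3 by 5.96 ± 0.04, Tat by 5.96 ± 0.04 and Slc2a2, the glucose transporter of liver, by 3.92 ± 0.04. Against Hepatocytes, the count was 2 higher and 11 lower for HNF4A targets, 3 and 3 for FOXA targets, 2 and 2 for ONECUT targets and 0 and 5 for NR5A2 targets. Pck1 (-8.01 ± 0.07), Apoa2 (-7.65 ± 0.12) and Cyp8b1 (-6.67 ± 0.08) were among the lowest.

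Of 22 other hepatocyte transcription factors, 6 were higher and 8 lower at D3 (median -0.16), 4 and 9 at D14, 2 and 7 for passaged IL6-iHPCs and 5 and 5 for IL6-iMHs. Gata6 (2.94 ± 0.10) and Zhx2 (2.48 ± 0.09) rose most at D3, and Nr0b2 and Nr1i3, the xenobiotic receptor CAR (-4.17 ± 0.09), fell most. Between IL6-iMHs and IL6-iHPCs 4 were higher, led by Ppara (2.17 ± 0.05) and Cebpa (1.53 ± 0.04), and 2 lower, Mlxipl (-1.31 ± 0.06) and Nr2f2 (-1.10 ± 0.06).

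**Figure D4:**
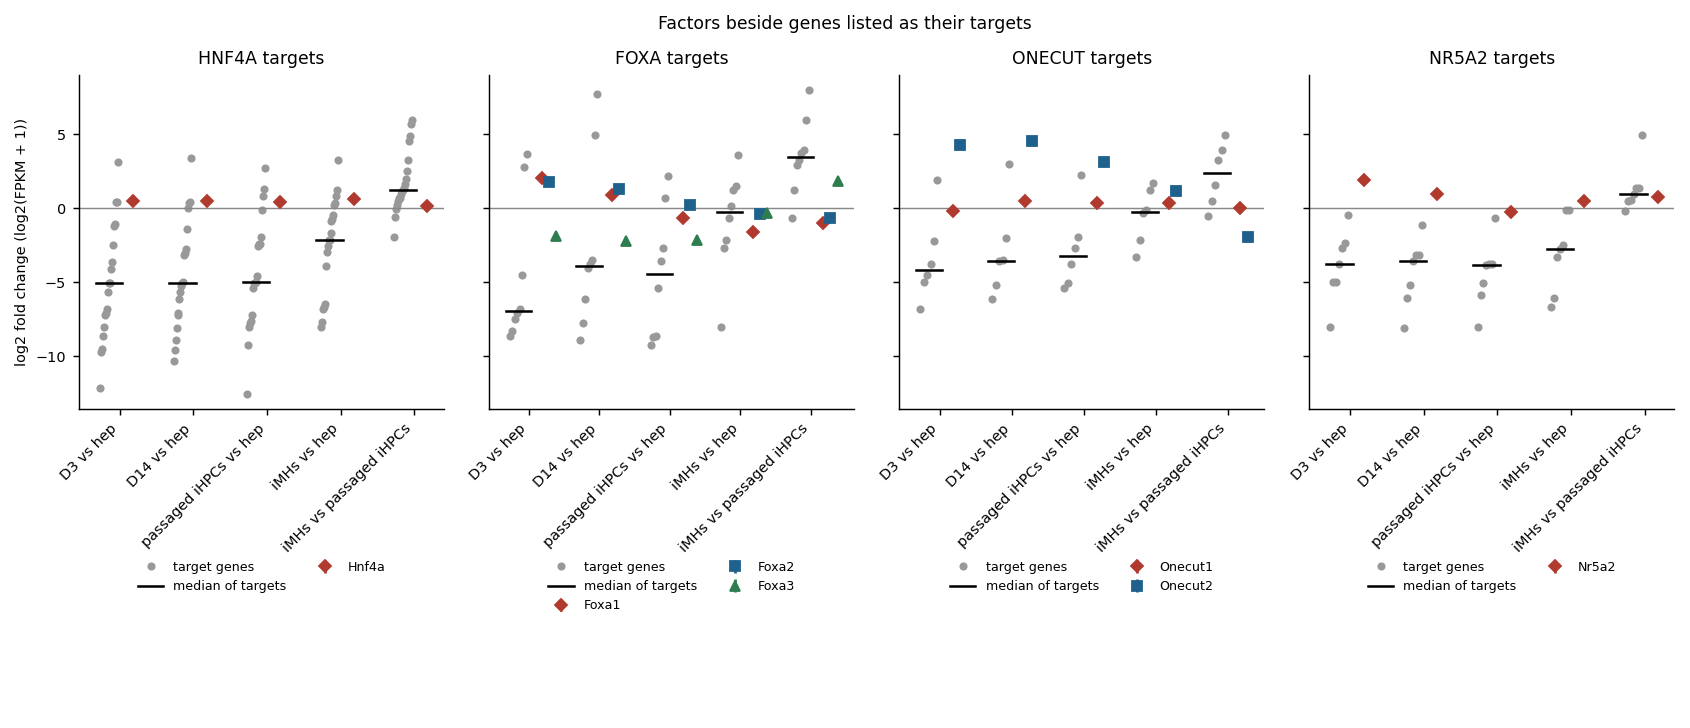
Log2 changes (vertical axis) of all factors but Prox1, and of the genes in the 4 target lists, in the cell comparisons. Points are genes, and Foxa2 and Hnf4a are left out of the ONECUT list because they are factors themselves. The HNF4A targets reach -12.14 at D3, while no factor is below -1.87 there.

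Markers of other cell types moved with these changes and their part in them was not tested. Of 6 tested biliary and progenitor markers, 5 were higher at D3, 6 at D14, 5 for passaged IL6-iHPCs and 4 for IL6-iMHs, and 2 were lower in IL6-iMHs than in IL6-iHPCs, namely Spp1 and Sox9. Of 8 hepatocyte markers, 7 were lower at D3, at D14 and in passaged IL6-iHPCs, 3 in IL6-iMHs, and 7 were higher in IL6-iMHs than in IL6-iHPCs. The 4 red blood cell markers were lower in the cultures, as were 2 of 3 Kupffer markers and 1 (D3) or 2 (D14 and later) of 5 sinusoidal markers. Of 2 tested lymphatic endothelial markers, 1 was higher at D3 and 2 at D14, with Flt4 at 2.63 ± 0.10 and 3.85 ± 0.10, and the 1 tested stellate marker, Dcn, was higher at D14. Prox1 is itself a lymphatic gene, and the summed level of the lymphatic markers was 0.858 to 1.11 FPKM in Hepatocytes and 9.33 to 25.8 FPKM in the IL6-iHPC groups, most of it from Flt4. The IL6-iMHs had 11.9 to 25.4 FPKM. Flt4 was not called between IL6-iMHs and IL6-iHPCs (0.14 ± 0.05), where Prox1 was lower. Lyve1 averaged 0.260 FPKM in Hepatocytes, 0.937 at D3 and 0.0750 at D14, and was at 0 FPKM in both lines at P10 and in all IL6-iMHs. Pdpn averaged 7.30 FPKM in IL6-iHPCs-clone-1 (P20). Of the sinusoidal markers, Cdh5 went from 0.891 FPKM in Hepatocytes to 2.58 at D3 and Pecam1 from 0.969 to 1.62. Kdr went the other way, from 1.57 to 0.599, as did Clec4g, from 12.6 to 0.431.

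In the regenerating liver the factors moved less. Only Foxa2 at 6 h and Onecut2 at 24 h were called. In whole tissue, fewer cells of a type and less RNA per cell cannot be told apart. Libraries of a group also differed more, with a median coefficient of variation of 88.7% for Onecut1, 29.6% for Foxa2 and 27.9% for Prox1, and 9.27% for Hnf4a.

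Foxa2 was 10.1, 14.6 and 14.0 FPKM in Normal liver and 3.64, 6.98 and 4.10 at PHX-6h, with no overlap. It fell by 1.26 ± 0.38 (adjusted p = 0.012), while the median gene stood at -0.28. The call was lost after quantile normalization (-0.95, adjusted p = 0.060) and median of ratios scaling (-0.96). Foxa3 (57.8, 30.7 and 50.6 FPKM against 20.9, 28.5 and 25.7) was at -0.83 ± 0.22, Foxa1 (5.52, 5.59 and 4.54 against 2.89, 2.93 and 2.41) at -0.73 ± 0.26 and Nr5a2 (14.8, 11.9 and 9.83 against 7.05, 7.20 and 8.14) at -0.62 ± 0.17, each without overlap and with an adjusted p under 0.05 but short of 2-fold. Hnf4a was at 0.51 ± 0.18. Markers of other cells moved at the same time. All 5 Kupffer markers were lower (-1.56 to -1.22), with a summed level of 32.8 to 70.9 FPKM against 112 to 193 in Normal liver. Of 6 sinusoidal markers Clec4g (-1.05) and Kdr (-1.58) were lower and Lyve1 (1.99), which is also on the lymphatic list, was higher. Of 6 tested biliary and progenitor markers Sox9 (2.12) was higher, and of 4 red blood cell markers Alas2 (-1.32) was lower. Of 8 hepatocyte markers and 6 stellate markers 0 were called by limma. The part of these shifts in the level of Foxa2 was not tested. The member called lower at 6 h, with 0 higher by limma, stands beside 11.5% of 11114 genes called lower and 4.78% higher. By limma 5 members had an unadjusted p under 0.05. The share of all genes under that unadjusted limit is not given, here or at the later times. Such counts are therefore not read against a background.

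Onecut2 was 4.41, 4.65 and 3.92 FPKM in Normal liver and 11.4, 9.14 and 11.2 at PHX-24h. It rose by 1.12 ± 0.15 (adjusted p = 0.00011), in all 4 scalings (1.12 to 1.29), and all livers at 24 h were above all normal livers. The 1 member called higher, with 0 lower by limma, stands beside 3.74% of all genes higher and 4.16% lower, and 3 members had an unadjusted p under 0.05. Without Normal liver replicate 1, Hnf4a (1.02) and Prox1 (1.11) were called too, for 3 in all, and without PHX-24h replicate 1 Prox1 (1.00) was. With all livers Hnf4a was at 0.79 ± 0.18 and Prox1 at 0.86 ± 0.28.

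At PHX-D3, PHX-D7 and PHX-D14, 0 members were called by limma on either scale of expression, FPKM or recovered reads, and 3, 2 and 3 had an unadjusted p under 0.05 by both. The genes called higher and lower were 3.33% and 2.49% at PHX-D3, 7.81% and 1.03% at PHX-D7 and 0.981% and 2% at PHX-D14. Onecut2 was 7.09, 5.77 and 7.90 FPKM at PHX-D3 (0.57 ± 0.15, adjusted p = 0.012 by limma), 3.22, 2.76 and 2.32 at PHX-D7 (-0.50 ± 0.15, adjusted p = 0.020 by limma) and 3.19, 3.22 and 2.86 at PHX-D14 (-0.38 ± 0.15, adjusted p = 0.098 by limma). Its level was above all normal livers at PHX-D3 and below all of them at PHX-D7 and PHX-D14.

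Foxa3 was 25.9, 19.6 and 22.8 FPKM at PHX-D7 (-0.95 ± 0.22, adjusted p = 0.0043 by limma), just short of 2-fold. It was called under quantile normalization and median of ratios scaling, and without Normal liver replicate 2 (-1.22) or PHX-D7 replicate 1 (-1.05). At PHX-D14 it was 56.8, 60.0 and 61.3 FPKM, in the upper part of the normal range or above it. Among the other markers at PHX-D7, 5 of 5 Kupffer, 3 of 4 red blood cell (the globins, with Alas2 at -0.71) and 3 of 6 sinusoidal markers were higher, and Kupffer markers summed to 551 to 815 FPKM against 112 to 193 in Normal liver. Their part in the level of Foxa3 was not tested.

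Onecut1 spread too widely in the livers for a statement on time. It was 1.44, 3.71 and 7.81 FPKM in Normal liver, 0.920, 1.09 and 2.75 at PHX-6h, 35.5, 5.14 and 8.11 at PHX-24h, 9.78, 2.97 and 32.6 at PHX-D3, 5.01, 5.63 and 4.42 at PHX-D7 and 3.43, 19.8 and 3.02 at PHX-D14. Single livers stood far above their group at 24 h, day 3 and day 14. The changes were -0.92 to 1.44 with a standard error of 0.79, and 0 of 5 were called by limma or had an unadjusted p under 0.05. The libraries highest in Onecut1 at 24 h, day 3 and day 14 had the lowest summed level of biliary and progenitor markers in their groups, at 39.1, 31.3 and 38.3 FPKM. The same held at PHX-6h (41.7 FPKM). In Normal liver and at PHX-D7 the library highest in Onecut1 had instead the highest such sum, at 34.3 and 47.3 FPKM. Whether these are linked was not tested.

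Prox1 was 15.4, 8.32 and 9.51 FPKM in Normal liver, 12.8, 12.7 and 19.7 at PHX-6h, 16.5, 18.1 and 27.8 at PHX-24h, 17.3, 12.9 and 13.9 at PHX-D3, 10.2, 9.81 and 9.10 at PHX-D7 and 12.2, 5.61 and 11.8 at PHX-D14. Only the livers at 24 h were all above the normal range. Hnf4a was 164, 87.2 and 117 FPKM in Normal liver, 182, 210 and 231 at PHX-24h and 107, 122 and 113 at PHX-D7. In the order of the 6 liver groups, neighbours overlapped in 5 of 5 steps for 6 members, in 4 for Foxa1 and in 3 for Onecut2.

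**Figure D5:**
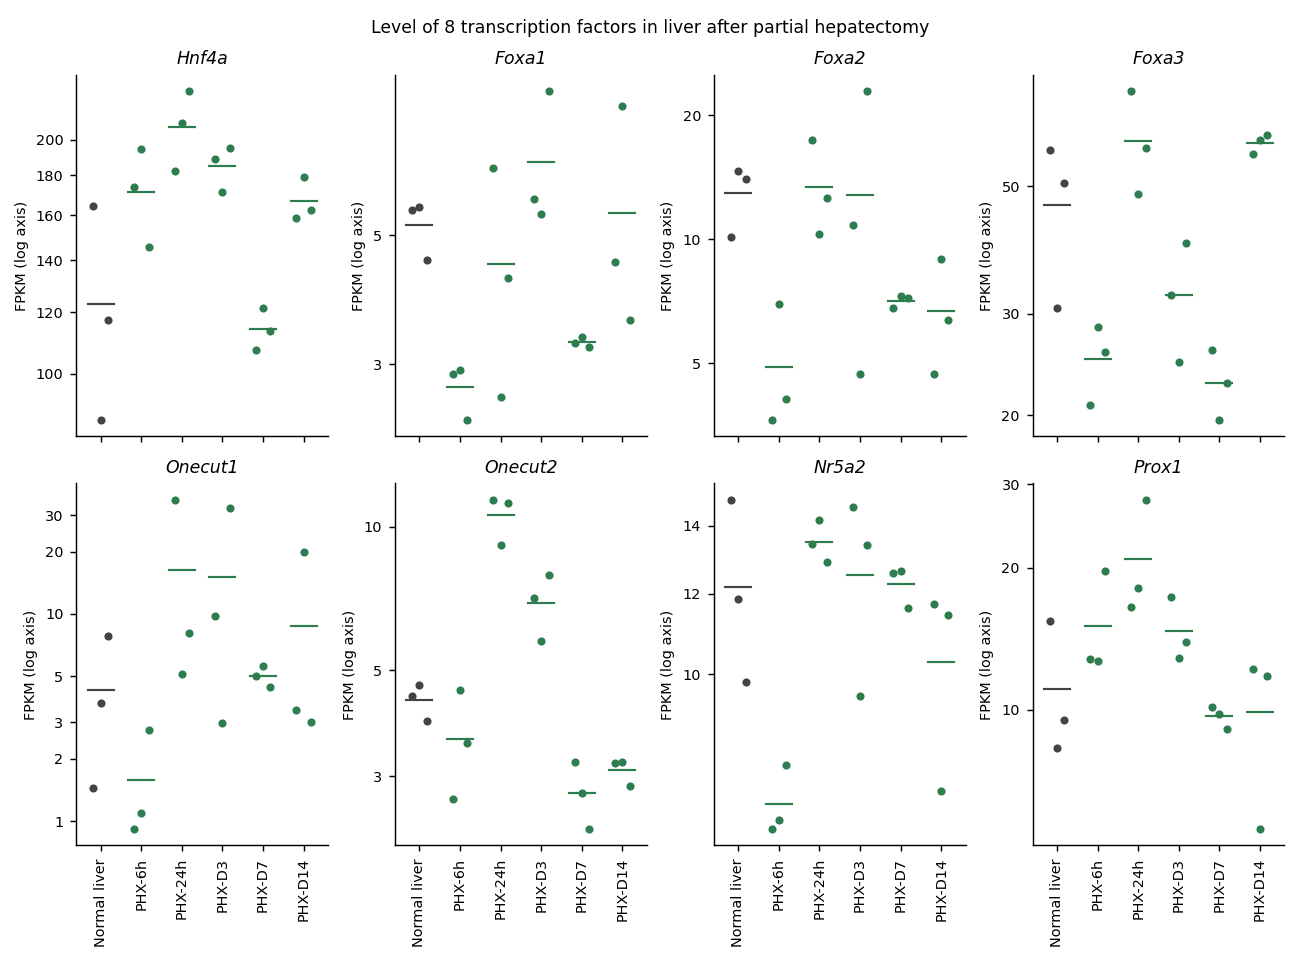
FPKM of each of the 8 factors in Normal liver and at 5 times after partial hepatectomy (vertical axis, log scale; points are the 3 livers of a group and bars their mean). The 3 livers at PHX-24h lie at 9.14 to 11.4 FPKM in Onecut2, above the 3.92 to 4.65 FPKM of Normal liver, whereas Onecut1 goes from 5.14 to 35.5 FPKM at that time.

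The same target lists were counted after hepatectomy. Beside 11.5% of all genes called lower at PHX-6h and 4.16% at PHX-24h, 5 and 2 of 8 ONECUT targets were lower, with Cyp7a1, the rate-limiting enzyme of bile acid synthesis, at -4.19 ± 1.26 at 6 h. Of 7 NR5A2 targets 2, 3 and 1 were lower at PHX-6h, PHX-24h and PHX-D3. Of 8 FOXA targets 2 rose at 6 h, Igfbp1 (4.69 ± 1.19) and Tat (2.06 ± 0.38), 1 fell at 24 h (Ttr, -1.42 ± 0.28) and 1 rose at PHX-D3 (Afp, 1.39 ± 0.45). Of 19 HNF4A targets, 1 was higher and 1 lower at 6 h, 1 and 3 at 24 h, 1 and 5 at PHX-D3, and 1 was lower at PHX-D14. Of 21 tested other hepatocyte factors, 2 rose and 10 fell at 6 h, with Cebpb (1.91 ± 0.31) and Cebpa (-2.37 ± 0.35) in opposite directions, and at most 3 were called at any later time.

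Levels in isolated Hepatocytes and in Normal liver differed, but the cell and liver values were normalized separately and were not tested against each other. Prox1 averaged 3.02 FPKM in Hepatocytes and 11.1 in Normal liver, Onecut2 0.553 and 4.32, and Nr5a2 4.77 and 12.2. Hnf4a averaged 140 and 123 FPKM.

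By Pearson correlation of log2 levels over the 11 cell group means, among 11776 genes, the 2 genes most like each member were Grina and Dll1 for Hnf4a (0.92 and 0.89), Nudc and Ckb for Foxa1 (0.95 and 0.93), Tle4 and Prpf6 for Foxa2 (0.96 and 0.95), Arg1 and H2-Q1 for Foxa3 (0.97 and 0.95), Cyp2j6 and Ece1 for Onecut1 (0.94 and 0.90), Tsc2 and Ints8 for Onecut2 (0.98 and 0.98), Ddi2 and Prkaa2 for Nr5a2 (0.88 and 0.88) and Ranbp6 and Map4k3 for Prox1 (0.99 and 0.98). Group means share libraries and scaling, and Hnf4a spans less than 1 on the log2 scale, so these are descriptions.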

How the data were processed

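RNA-seq values of 33 cell libraries (11 groups) and 18 livers (6 groups) were used. The authors deposited FPKM values per gene, and per the submitters' processing notes TopHat 1.4.1, Cufflinks 1.3.0 and the mm10 build were used, without parameters. Libraries were made from poly(A) mRNA and read from both ends, and the strand setting was not given in the sources used here. The FPKM of each gene are whole multiples of the worth of 1 read: for 18826 cell and 17327 liver genes (100.0%) whole reads were recovered within a tolerance of 0.1, and depth, read numbers and the voom alternative came from them. Intervals of this kind cover counting error only. Groups were taken from the sample labels, and no libraries were found to be duplicates.

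Genes that reached 1 FPKM in 3 or more libraries (12328 cell, 11114 liver) were tested on log2(FPKM + 1) with limma 3.58.1 (R 4.3.3), trended variance, 1 fit per data set and Benjamini-Hochberg adjustment over all tested genes. The script was tested on simulated data. Exact permutation tests used scipy 1.17.1. Genes were named by a rule: all 8 members, and the 2 largest rises and 2 largest falls of each list. Some genes that the rule names are not reported here. The members, lists and tests were chosen with earlier results of these data known. Promoters are from RefSeq and positions and overlaps from GENCODE, both on GRCm38, the assembly that mm10 names. The target gene written Tf is Trf in the data.

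A further 9 libraries of day 7 cultures were not used, because the 480 complete rows of their file hold 0 of the 8 members, so a planned day 7 comparison could not be run. Alternatives were other pseudocounts, filters, scalings and fold limits, the replicate block, leaving out each library and leaving out the clone-1 lines.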

Additional observations from a re-analysis of the deposited data

Results flagged for a closer look

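The change on maturation differed between the 4 lines for each of the 8 factors, by a limma F test of the line differences (3 repeats per line and state). The adjusted p was 3.3e-21 for Nr5a2, whose change was -0.98 to 2.89 on the log2 scale, and 1.7e-19 for Onecut1, at -2.53 to 1.89. It was 2.9e-15 for Prox1 (-2.87 to 0.23), 7.4e-14 for Foxa2 (-1.35 to 0.57), 2.1e-13 for Hnf4a (-0.21 to 0.93) and 3.5e-12 for Onecut2 (-3.35 to -1.11). It was 2.4e-09 for Foxa3 (1.38 to 2.10) and 2.5e-07 for Foxa1 (-1.36 to -0.45). Of all 12328 genes, 96.3% passed the same test, whose error is that of technical repeats. Without the clone-1 lines, an alternative chosen after seeing the data, all 8 factors and 91.5% of 12215 genes passed (adjusted p of 4.8e-15 for Onecut1 to 1.0e-05 for Foxa1), and the highest changes were 1.61 for Nr5a2, 1.17 for Onecut1 and -0.41 for Prox1.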

How the results depend on the processing

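Of 1352 alternative values of single members, 1261 kept their direction and their side of the threshold, 14 lost a call, 30 gained one and 47 changed sign. Of these 47, 26 came from another scaling, 19 from leaving out 1 library and 2 from leaving out the clone-1 lines. Under median of ratios scaling Hnf4a was at -1.11 at D3, -0.94 at D14, -0.88 for the passaged lines and -0.16 for IL6-iMHs, all against Hepatocytes. In the same way Foxa2 was at -0.068 (D14) and -1.05 (passaged), Foxa1 at -0.33 (D14), Onecut1 at -0.83 (D14), -0.89 (passaged) and -0.39 (IL6-iMHs), and Nr5a2 at -0.27 (D14) and -0.18 (IL6-iMHs). With quantile normalization Foxa1 was at -0.39 (D14), Foxa2 at -0.37 (passaged), Onecut1 at -0.38 (D14), -0.42 (passaged) and -0.098 (IL6-iMHs), Nr5a2 at -0.26 (D14) and -0.12 (IL6-iMHs), and Hnf4a at -0.14 between IL6-iMHs and IL6-iHPCs. In the livers quantile normalization and median of ratios scaling gave 0.061 and 0.048 for Onecut2 at PHX-6h, -0.17 and -0.11 for Nr5a2 at PHX-D7 and 0.093 and 0.10 for Foxa1 at PHX-D14. Numbers of called members moved by over 1.5 times in these cases. With quantile normalization there were 5 in passaged IL6-iHPCs, 1 in IL6-iMHs against Hepatocytes, 0 at PHX-6h and 1 at PHX-D7. With median of ratios scaling there were 6 in passaged IL6-iHPCs, 0 at PHX-6h and 1 at PHX-D7, and the 3 in IL6-iMHs were all lower. IL6-iMHs against IL6-iHPCs gave 5 with a pseudocount of 0.1 and with voom, 7 with no fold limit and 6 with a 1.5-fold limit. With no fold limit there were 8 at D14, 8 in passaged IL6-iHPCs, 8 in IL6-iMHs, 5 at PHX-6h, 3 at PHX-24h, 2 at PHX-D3 and 2 at PHX-D7, and with a 1.5-fold limit 4, 3, 1 and 1 in these livers. For D3, PHX-D14 and the other settings the numbers stayed within 1.5 times. The causes of these moves were not tested.

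Leaving out 1 library at a time gave 1 to 2 called members at PHX-6h (2 without Normal liver replicate 2), 1 to 3 at PHX-24h, 0 to 1 at PHX-D7 and 4 to 5 at D14, where Nr5a2 was added without Hepatocytes replicate 2 (1.10) or D14 replicate 1 (1.02). The other comparisons did not change. The sign of some members without a call depended on 1 library, with ranges of -0.0077 to 0.050 for Onecut1 between IL6-iMHs and IL6-iHPCs, -0.51 to 0.016 for Foxa1 and -0.15 to 0.20 for Foxa2 at PHX-24h, and -0.74 to 0.29 for Foxa2 and -0.099 to 0.20 for Nr5a2 at PHX-D3. At PHX-D7 they were -0.28 to 0.17 for Hnf4a, -0.10 to 0.82 for Onecut1, -0.10 to 0.17 for Nr5a2 and -0.30 to 0.11 for Prox1, and at PHX-D14 -0.30 to 0.21 for Foxa1, -0.14 to 1.08 for Onecut1 and -0.35 to 0.15 for Prox1. Without the clone-1 lines 22 of 24 member values kept their direction and call, Nr5a2 in passaged IL6-iHPCs went to 0.19 and Onecut1 between IL6-iMHs and IL6-iHPCs to -0.59, neither called.

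The replicate numbers did not pair the samples: same-numbered libraries had correlations of deviations of -0.54 to 0.57 in cells and -0.30 to 0.39 in livers, and 4 of 33 and 5 of 18 libraries correlated best with their own number. With the replicate block the called members were 6, 4, 3, 3 and 3 in the cell comparisons and 1, 1, 0, 0 and 0 in the livers, and 80 of 80 member values kept their call.

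Over all genes, IL6-iMHs against Hepatocytes gave 4020 calls as deposited and 6476 with voom, and IL6-iMHs against IL6-iHPCs 3459, 5434 with voom and 2281 after quantile normalization. The livers gave 1810, 878, 647, 982 and 331 calls in order of time, and 3025, 1389, 1084, 1559 and 756 with voom. At PHX-6h the calls were 531 higher and 1279 lower as deposited and 758 and 674 after quantile normalization. Foxa1 in the IL6-iMHs of clone-1 rests on 21 to 41 reads per library, and depth did not limit the other members.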

Other observations

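Correlations of the factors around their group means in the livers did not pass correction. Over 28 pairs of members and 18 livers, the highest correlation was that of Foxa2 and Onecut1, with Pearson's r = 0.79 (within-group permutation p = 0.0072, adjusted p = 0.136) and Spearman's rho = 0.78 (permutation adjusted p = 0.109), and r = 0.68 without the 2 livers farthest from the median. For Nr5a2 and Prox1 r was 0.71 (permutation adjusted p = 0.136). Of the 28 pairs, 0 passed an adjusted p of 0.05 by either measure. The libraries highest in Onecut1 at PHX-24h, PHX-D3 and PHX-D14 were also the highest of their groups in Foxa1 and Foxa2, which was noticed after the values were seen and was not tested on its own. In Normal liver and at PHX-6h the library highest in Onecut1 was the lowest in Foxa1.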
